A study of Homo sapiens with 6 samples.

Results

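The genes described here encode cytokines, chemokines and the receptors that bind them, measured in ME-1 cells after treatment with AI-10-49 or with DMSO. Members were taken by gene symbol from the rows that name 1 gene: symbols that begin with CCL, CCR, CXCL, CXCR, IL or CSF and then a digit, or with TNFRSF or TNFSF, and the symbols TNF, LTA, LTB, LIF, OSM and TGFB1, with TNFRSF10A left out. The rule found 37 genes among 6339 rows, 20 that encode ligands and 17 that encode receptors. ME-1 is a human acute myeloid leukaemia cell line with inv(16), the inversion that joins CBFB to MYH11 and yields the fusion protein CBFβ-SMMHC. AI-10-49 binds this fusion protein and interferes with its contact with RUNX1. The 2 groups were ME-1 cells kept for 6 h with 1 µM AI-10-49 (3 libraries) and ME-1 cells kept for 6 h with DMSO, the solvent (3 libraries), and the cells of both groups carry the fusion. The 3 libraries of a group come from independent experiments per the labels, all in 1 cell line, at 1 dose and 1 time. Values are FPKM, fragments scaled to transcript length and library size, so levels can be set side by side between genes.

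Cytokines are secreted or membrane-bound proteins that pass signals between blood cells, and chemokines are the small members that direct cell movement. Interleukin and colony-stimulating factor receptors mostly signal through JAK kinases and STAT factors, chemokine receptors through G proteins, and TNF receptors through TRAF adaptors to NF-kB or, where they carry a death domain, to cell death. Myeloid cells both make and sense these signals, and many ligand genes in them are switched on within hours through NF-kB and AP-1.

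With AI-10-49 the group moved in both directions. Neutrophil-attracting chemokine genes rose together, led by IL8 at 4.37-fold, while IL1B fell 3.38-fold and IL17D fell 4.11-fold in mean FPKM. Of 36 tested members 20 rose, 14 fell and 2 did not pass the threshold (limma, Benjamini-Hochberg adjusted p under 0.05). Of all 6230 rows tested, 95.3% passed, 46.2% higher and 49.1% lower, so the number of members that passed is no result about them: the deposited rows appear to have been selected on these same libraries. The members' median log2 fold change was 0.51, against -0.28 over all rows tested, and their median absolute log2 fold change was 1.00, against 0.56. Under quantile normalization the medians were 0.54 for the members and -0.06 for all rows. Few rows lie near no change, so the sign of a median mostly repeats the split into higher and lower. Members at 1 FPKM or more in both groups had a median of 0.55, and 0.97 for the absolute change. A called change of at least 1 on the log2 scale was found in 18 of the 36 members, 11 higher and 7 lower, and in 13.4% of all rows tested (5.79% higher and 7.62% lower). Of the 30 members that averaged 1 FPKM or more in each group, 15 showed such a change, 11 higher and 4 lower. The share of all rows under that stricter filter was not counted, so these 15 have no share to stand beside. The members were chosen with earlier results of these data known, so the medians and shares describe them and are not tests. The 3 AI-10-49 libraries lay apart from the 3 DMSO libraries in 35 of 36 members, against 96.2% of all rows. Fold changes on the log2 scale are those of FPKM + 1, which understates the change of genes at low levels.

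**Figure D1:**
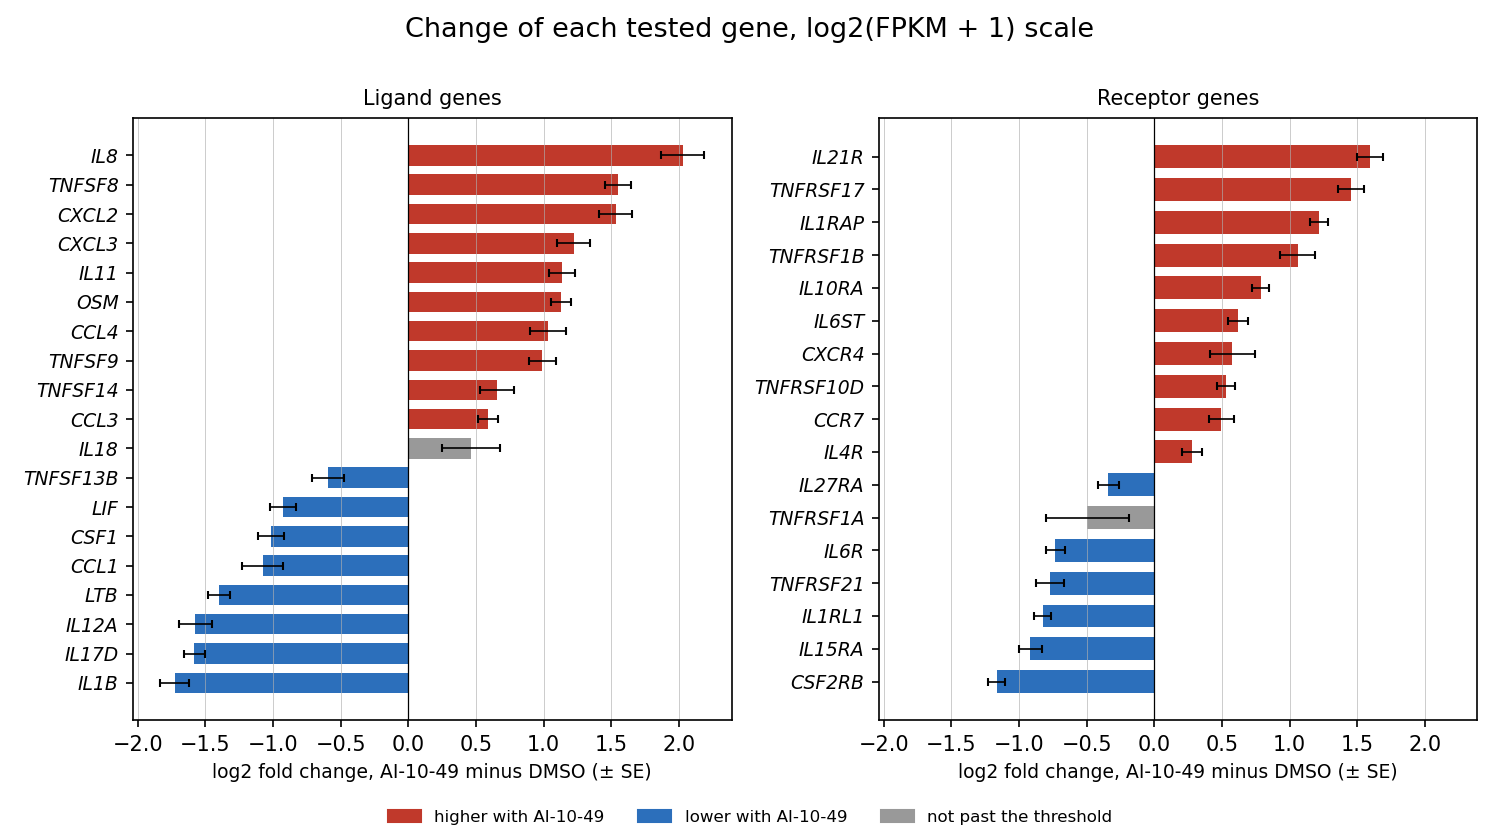
Log2 fold change (AI-10-49 minus DMSO, log2(FPKM + 1) scale, horizontal axis) of the 19 tested ligand genes (left) and 17 receptor genes (right), with bars from 0 and whiskers of 1 SE from limma. Red bars are higher and blue bars lower with AI-10-49, and grey bars did not pass the threshold; the ligands run from -1.73 (IL1B) to 2.03 (IL8) and the receptors from -1.16 (CSF2RB) to 1.59 (IL21R).

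Of the 36 tested members, 30 had a mean of at least 1 FPKM in both groups. TNFSF9 and TNFSF14 reached this level with AI-10-49 alone and CCL1, CSF1, IL12A and LIF with DMSO alone, so these 6, all ligand genes, could be tested only because of the group in which they were high. AI-10-49 replicate 2 stood apart at high levels. Its highest value in any row was 159 FPKM, against 1843 FPKM in replicate 1 and 1877 FPKM in replicate 3. Replicates 1 and 3 both reached 100 FPKM in 280 rows, and replicate 2 read below the pair of them in every one. The same held for all 10 members whose mean in replicates 1 and 3 was 25 FPKM or more, where the ratio of replicate 2 to that mean was 0.552 to 0.976. In the 27 less abundant members replicate 2 was below both others in 4 and above both in 17. Results for the 10 more abundant members are therefore given with and without this library. Among the less abundant members its ratio was highest in CCL1 (2.47), TNFSF14 (1.49) and CXCL2 (1.41). Without it their log2 fold changes were -1.26, 0.54 and 1.38, against -1.08, 0.66 and 1.53 with all libraries.

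**Figure D2:**
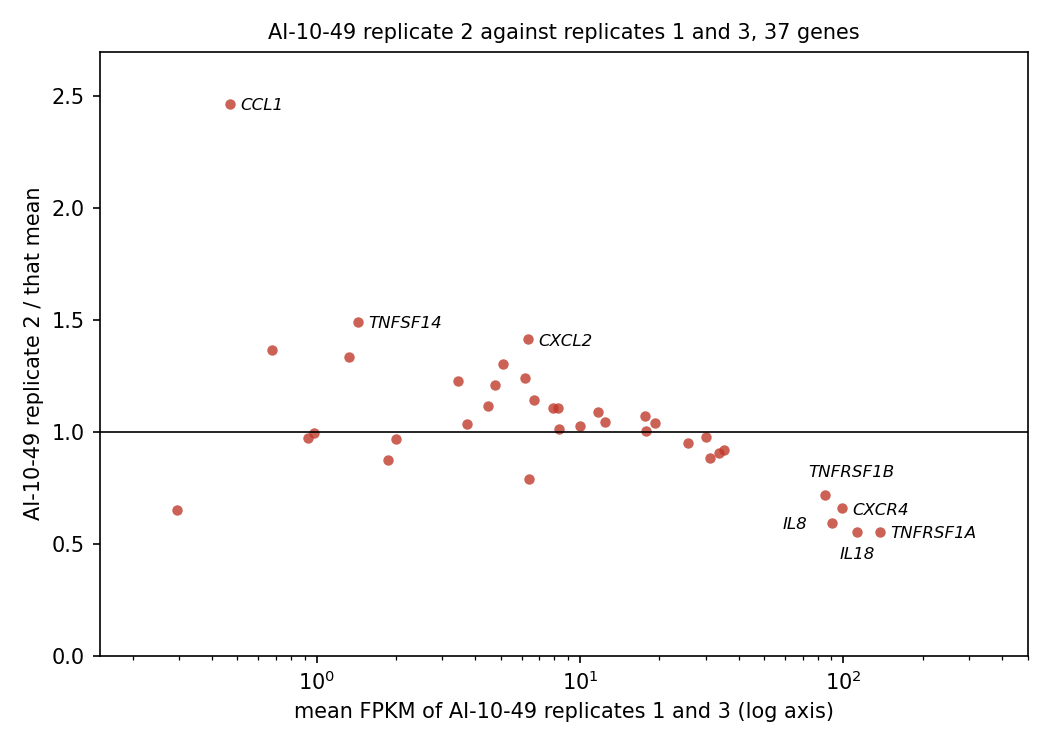
FPKM of AI-10-49 replicate 2 divided by the mean of AI-10-49 replicates 1 and 3 (vertical axis) against that mean (horizontal log axis), 1 point for each of the 37 genes, with a line at equality. The ratio falls below 0.72 in the 5 most abundant genes (TNFRSF1A, IL18, CXCR4, IL8 and TNFRSF1B), and the highest point is CCL1 at 2.47, a gene under 1 FPKM.

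Of 6 chemokine ligand genes, 5 rose with AI-10-49 and 1 fell, and the 5 that rose are those at 1 FPKM or more in both groups. Over all rows tested 46.2% were higher and 49.1% lower, and 6 genes are too few to set against these shares. The risers were the CXC chemokine genes IL8 (CXCL8), CXCL2 and CXCL3, whose products draw in neutrophils, and the CC chemokine genes CCL3 and CCL4, whose products attract monocytes and T cells. CCL1, which encodes a ligand of CCR8, fell. The promoters of the 3 CXC risers are shown first, with that of CCL1 as the member of the group that went the other way. Each runs from 250 bases before to 50 bases after the start of the gene, 5′ to 3′ on the gene's strand, and comes from RefSeq on build GRCh38.p14: IL8 at chr4:73740319-73740618 (plus strand), CXCL2 at chr4:74099146-74099445 (minus strand), CXCL3 at chr4:74038640-74038939 (minus strand) and CCL1 at chr17:34363184-34363483 (minus strand). Capitals mark matches to GGNNNTTCC, a short form of the kB motif of NF-kB, on either strand.
IL8: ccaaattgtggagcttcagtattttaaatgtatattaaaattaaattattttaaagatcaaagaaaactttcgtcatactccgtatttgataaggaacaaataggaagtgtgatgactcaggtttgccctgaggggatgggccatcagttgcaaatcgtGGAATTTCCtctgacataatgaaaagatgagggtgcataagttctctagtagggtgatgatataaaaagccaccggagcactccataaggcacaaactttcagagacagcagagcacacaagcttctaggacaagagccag
CXCL2: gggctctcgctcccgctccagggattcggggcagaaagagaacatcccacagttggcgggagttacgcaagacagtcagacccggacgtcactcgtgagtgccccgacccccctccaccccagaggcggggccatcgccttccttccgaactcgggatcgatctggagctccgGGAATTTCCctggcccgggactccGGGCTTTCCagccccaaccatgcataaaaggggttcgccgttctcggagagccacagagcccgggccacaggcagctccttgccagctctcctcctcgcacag
CXCL3: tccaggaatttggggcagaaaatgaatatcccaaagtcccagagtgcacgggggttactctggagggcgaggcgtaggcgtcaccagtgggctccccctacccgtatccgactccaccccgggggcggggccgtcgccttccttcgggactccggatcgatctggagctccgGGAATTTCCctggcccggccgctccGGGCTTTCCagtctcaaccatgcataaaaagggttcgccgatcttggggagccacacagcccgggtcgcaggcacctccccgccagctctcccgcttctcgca
CCL1: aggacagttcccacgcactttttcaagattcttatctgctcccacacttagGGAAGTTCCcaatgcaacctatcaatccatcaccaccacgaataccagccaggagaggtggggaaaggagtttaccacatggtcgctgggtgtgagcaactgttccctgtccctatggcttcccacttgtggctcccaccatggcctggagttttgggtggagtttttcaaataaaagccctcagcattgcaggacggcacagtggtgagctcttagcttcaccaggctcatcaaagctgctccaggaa
IL8 held 1 match, whose first base lay 91 bases before the start, CXCL2 held 2 (at 77 and 53 bases), CXCL3 held 2 (at 78 and 53 bases) and CCL1 held 1 (at 199 bases). CXCL2 and CXCL3 shared an unbroken run of 37 bases that contains the upstream match, and the longest run that IL8 shared with either was 9 bases, the match itself. A promoter was found for 27 of the 37 members, and 8 of these held the motif, 5 of the 14 among them that rose and 3 of the 11 that fell. Of 27305 promoters of the same length, 20.1% held it. CCL3, which also rose, held no match, nor did IL1B, which fell. For CCL4 no promoter was found. The AP-1 motif TGANTCA was in 6 of 27 members, against 7.76% of all promoters. These were 4 of the 14 that rose, IL8 among them, and 2 of the 11 that fell (IL6R and IL1RL1). The RUNX motif TGTGGT was in 4 of 27 (TNFSF13B, CCL3, CCL1 and IL21R) against 13.1%. The cyclic AMP response element TGACGTCA was in 0 of 27 members and in 1.98% of all promoters, each motif being searched on both strands.

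IL8 had 87.0, 54.0 and 94.4 FPKM in the AI-10-49 libraries, against 17.3, 17.6 and 19.0 FPKM in the DMSO libraries. Every AI-10-49 library lay far above every DMSO library, with AI-10-49 replicate 2 the lowest of its group. The log2 fold change of IL8 was 2.03 ± 0.16 (SE, limma adjusted p = 1.27e-07), and 2.27 without AI-10-49 replicate 2. CXCL2 had 5.75, 8.95 and 6.91 FPKM with AI-10-49 and 1.66, 1.82 and 1.92 FPKM with DMSO. CXCL3, its immediate neighbour on chromosome 4 with no other protein-coding gene between them, had 4.64, 6.65 and 5.56 FPKM with AI-10-49 and 1.83, 1.46 and 2.20 FPKM with DMSO. In both genes the groups were apart and AI-10-49 replicate 2 was the highest library, the reverse of its place in IL8. Their log2 fold changes were 1.53 ± 0.12 and 1.22 ± 0.12 (SE, limma adjusted p = 1.24e-07 and 1.09e-06). CXCL2 and CXCL3 are close in sequence, so reads may have been shared between them.

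CCL4 had 5.82, 7.70 and 6.57 FPKM with AI-10-49, against 2.11, 2.66 and 3.63 FPKM with DMSO. CCL3, its neighbour on chromosome 17, had 18.6, 20.1 and 20.0 FPKM with AI-10-49, against 11.4, 13.8 and 12.9 FPKM with DMSO. The groups did not overlap in either, and the change was 1.03 ± 0.13 for CCL4 and 0.59 ± 0.07 for CCL3 on the log2 scale (SE, limma adjusted p = 9.76e-06 and 9.09e-06). Both have near-identical copies in the genome, so how their reads were assigned is uncertain. CCL1 had 0.363, 1.16 and 0.574 FPKM with AI-10-49 and 2.26, 2.49 and 2.81 FPKM with DMSO. It was low in every library and 3.62-fold lower in mean FPKM with AI-10-49, a log2 fold change of -1.08 ± 0.15 (SE, limma adjusted p = 2.19e-05).

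Both chemokine receptor genes with a row rose, where 46.2% of all rows tested were higher. CXCR4, the receptor for CXCL12 that holds blood stem cells and leukaemia cells in bone marrow, had 97.4, 64.9 and 99.8 FPKM with AI-10-49, against 55.9, 55.3 and 60.5 FPKM with DMSO. AI-10-49 replicate 2 lay just above the DMSO libraries and the other AI-10-49 libraries well above them. The log2 fold change of CXCR4 was 0.58 ± 0.17 (SE, limma adjusted p = 0.00537), 0.77 without AI-10-49 replicate 2 and 0.96 under quantile normalization. CCR7, which guides cells to lymph nodes, averaged 3.78 ± 0.22 FPKM with AI-10-49 and 2.40 ± 0.30 FPKM with DMSO (SD, n = 3 each; log2 fold change 0.49, limma adjusted p = 0.000246). No row was analysed here for CXCR1 or CXCR2, the receptors of the CXC ligands that rose, nor for CCR1 or CCR8.

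Among 9 interleukin and other cytokine genes, 8 were tested, of which 5 fell, 2 rose and 1 did not pass. The shares over all rows tested were 49.1% lower and 46.2% higher. Of the 5 at 1 FPKM or more in both groups, 2 fell (IL1B and IL17D), 2 rose and 1 did not pass, while the fallers IL12A, CSF1 and LIF were tested through their DMSO level alone. IL1B, which encodes the fever-inducing interleukin made by activated monocytes, had 30.1, 27.5 and 32.4 FPKM in the AI-10-49 libraries, against 104, 98.5 and 102 FPKM in the DMSO libraries. The spread within each group was small beside the gap. Its log2 fold change was -1.73 ± 0.11 (SE, limma adjusted p = 1.38e-08), and -1.67 without AI-10-49 replicate 2. With DMSO, IL1B was the most abundant ligand gene (102 ± 2.93 FPKM, SD, n = 3) and IL8 stood at 18.0 ± 0.89 FPKM. With AI-10-49, IL8 stood at 78.5 ± 21.5 FPKM and IL1B at 30.0 ± 2.43 FPKM, so the order of these genes was turned round.

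IL17D, of the interleukin 17 family, had 1.88, 1.63 and 1.84 FPKM with AI-10-49, against 7.33, 7.02 and 7.64 FPKM with DMSO (log2 fold change -1.58 ± 0.08 SE, limma adjusted p = 2.43e-09). IL12A, which encodes a subunit of the interleukin that steers T cells to make interferon gamma, had 0.315, 0.193 and 0.277 FPKM with AI-10-49, against 2.45, 3.41 and 2.48 FPKM with DMSO. Each AI-10-49 library of IL12A was under 1 FPKM, so its ratio of means (10.6-fold lower) rests on low values, and its fall on the FPKM + 1 scale (-1.58 ± 0.12 SE, limma adjusted p = 1.07e-07) became -2.99 with a pseudocount of 0.1. CSF1, the macrophage growth factor gene, had 1.00, 0.900 and 0.848 FPKM with AI-10-49 and 2.82, 2.89 and 2.90 FPKM with DMSO, a log2 fold change of -1.02, or -1.55 with a pseudocount of 0.1. The groups of these 3 genes were clearly apart.

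OSM, LIF and IL11 encode relatives of interleukin 6 that signal through the shared receptor chain encoded by IL6ST. OSM had 12.4, 12.7 and 11.0 FPKM with AI-10-49 and 5.27, 4.60 and 5.02 FPKM with DMSO. LIF, the immediate neighbour of OSM on chromosome 22, had 1.06, 0.977 and 0.901 FPKM with AI-10-49 and 2.87, 2.76 and 2.66 FPKM with DMSO. These adjacent genes moved in opposite directions, OSM by 1.13 ± 0.08 and LIF by -0.93 ± 0.09 on the log2 scale (SE, limma adjusted p = 3.22e-08 and 1.28e-06), and LIF by -1.41 with a pseudocount of 0.1. IL11 had 3.39, 4.24 and 3.52 FPKM with AI-10-49 and 1.14, 1.17 and 1.10 FPKM with DMSO, a rise of 1.14 ± 0.10 on the log2 scale (SE, limma adjusted p = 2.76e-07). OSM and IL11 were thus higher, and LIF lower, in every AI-10-49 library than in any DMSO library.

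IL18, the gene of an interleukin that induces interferon gamma, had 110, 62.0 and 115 FPKM with AI-10-49, against 65.7, 62.7 and 71.6 FPKM with DMSO. AI-10-49 replicate 2 lay below all DMSO libraries and the other AI-10-49 libraries above them, so IL18 was the only tested member whose groups overlapped. IL18 did not pass with all libraries (log2 fold change 0.46 ± 0.21 SE, limma adjusted p = 0.0508) and passed without AI-10-49 replicate 2 (0.75, adjusted p = 1.85e-06), with the replicate number as a block (adjusted p = 0.00804) and under quantile normalization (0.84, adjusted p = 3.70e-07). Without AI-10-49 replicate 3 the log2 fold change of IL18 was 0.31 (adjusted p = 0.173). IL24, of the interleukin 10 family, was left out by the filter on low values, with 0.480, 0.925 and 0.872 FPKM with AI-10-49 and 0.268, 0.291 and 0.531 FPKM with DMSO. The groups of IL24 overlapped, and with no filter its log2 fold change was 0.36 ± 0.13 (SE, limma adjusted p = 0.0197).

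**Figure D3:**
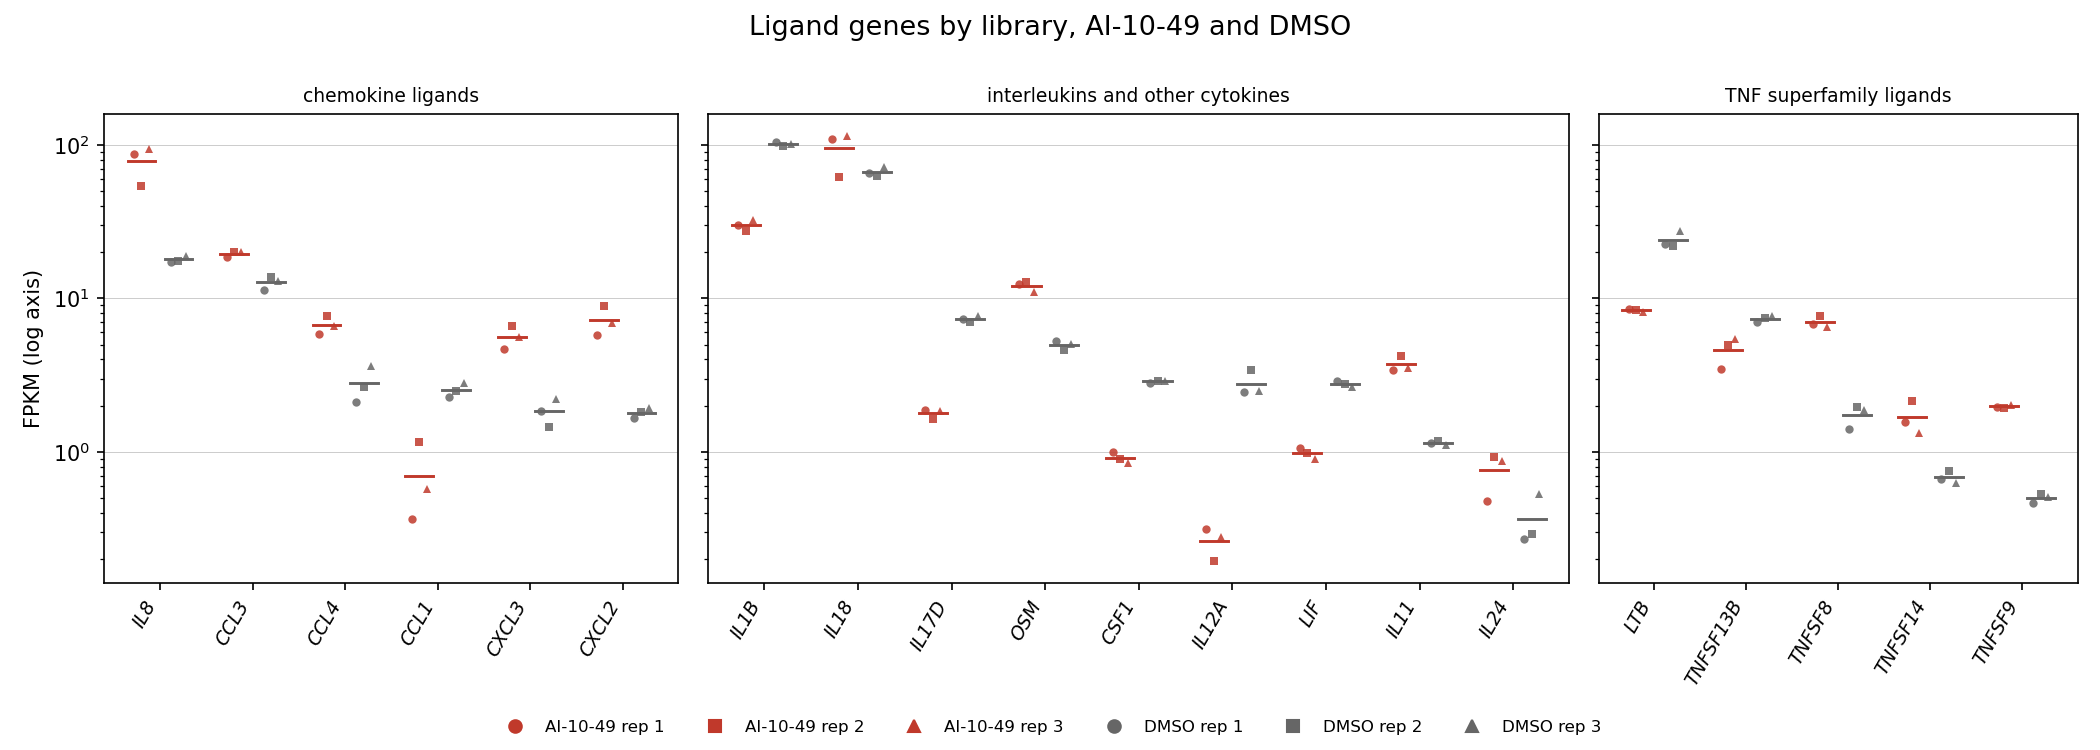
FPKM on a log axis of the 20 ligand genes in each AI-10-49 library (red, left of each pair) and each DMSO library (grey), with replicates 1, 2 and 3 as circles, squares and triangles and group means as horizontal lines. IL8 stands at a mean of 78.5 FPKM with AI-10-49 and 18.0 FPKM with DMSO, IL1B at 30.0 FPKM with AI-10-49 and 102 FPKM with DMSO, and in IL18 the AI-10-49 replicate 2 square lies at the level of the DMSO libraries.

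Among the 5 TNF superfamily ligand genes, 3 rose and 2 fell, where 46.2% of all rows tested were higher and 49.1% lower. Of the 3 at 1 FPKM or more in both groups 1 rose and 2 fell. TNFSF8, the gene of CD30 ligand, had 6.85, 7.65 and 6.55 FPKM in the AI-10-49 libraries, against 1.41, 1.96 and 1.86 FPKM in the DMSO libraries (log2 fold change 1.55 ± 0.10 SE, limma adjusted p = 1.65e-08). LTB, which encodes the membrane anchor of lymphotoxin and was the most abundant of these genes with DMSO, had 8.52, 8.45 and 8.19 FPKM with AI-10-49, against 22.5, 21.9 and 27.5 FPKM with DMSO (log2 fold change -1.40 ± 0.08 SE, limma adjusted p = 7.85e-09). The groups were apart in both, and the 3 AI-10-49 libraries of LTB were nearly equal. TNFSF9, which encodes a costimulator of T cells, had 1.96, 1.94 and 2.03 FPKM with AI-10-49, against 0.463, 0.528 and 0.506 FPKM with DMSO. TNFSF14, which encodes LIGHT, averaged 1.67 ± 0.43 FPKM with AI-10-49 and 0.681 ± 0.060 FPKM with DMSO (SD, n = 3 each). The log2 fold changes of TNFSF9 and TNFSF14 were 0.99 and 0.66 (limma adjusted p = 1.45e-06 and 0.000306), and 1.80 and 1.16 with a pseudocount of 0.1. TNFSF13B, the gene of the B cell survival factor BAFF, had 3.44, 4.97 and 5.47 FPKM with AI-10-49 and 6.99, 7.47 and 7.69 FPKM with DMSO, a log2 fold change of -0.59 ± 0.12 (SE, limma adjusted p = 0.000361). Rows for TNF, LTA and TGFB1 were not analysed here.

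Interleukin and colony-stimulating factor receptor genes split evenly, with 5 higher and 5 lower of 10, near the 46.2% and 49.1% of all rows tested. The groups were apart in all 10, near the 96.2% of all rows tested, so this is no result about them. IL21R, which encodes the interleukin 21 receptor, had 4.70, 5.74 and 4.81 FPKM in the AI-10-49 libraries, against 1.12, 1.00 and 0.908 FPKM in the DMSO libraries. It rose 5.03-fold in mean FPKM, a log2 fold change of 1.59 ± 0.10 (SE, limma adjusted p = 1.27e-08). IL4R lies beside IL21R on chromosome 16 and averaged 34.1 ± 1.68 FPKM with AI-10-49 and 28.0 ± 1.58 FPKM with DMSO (SD, n = 3 each; log2 fold change 0.28, limma adjusted p = 0.00362, and 0.32 without AI-10-49 replicate 2).

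IL1RAP encodes the accessory chain that completes the receptors for interleukin 1 and for interleukin 33, and IL1RL1 encodes ST2, the chain that binds interleukin 33. IL1RAP had 17.1, 19.0 and 18.4 FPKM with AI-10-49, against 7.35, 6.81 and 7.56 FPKM with DMSO (log2 fold change 1.22 ± 0.07 SE, limma adjusted p = 5.68e-09). IL1RL1 averaged 12.7 ± 0.45 FPKM with AI-10-49 and 23.3 ± 0.35 FPKM with DMSO (SD, n = 3 each; log2 fold change -0.83, limma adjusted p = 6.62e-08). With AI-10-49 the accessory chain thus stood above the binding chain, and with DMSO below it. The chains of the interleukin 6 receptor also went opposite ways. IL6R, the binding chain, averaged 25.3 ± 0.70 FPKM with AI-10-49 and 42.7 ± 0.75 FPKM with DMSO (log2 fold change -0.73, limma adjusted p = 8.07e-07, and -0.71 without AI-10-49 replicate 2). IL6ST, the signalling chain, had 7.64, 8.74 and 8.14 FPKM with AI-10-49 and 5.15, 4.91 and 4.84 FPKM with DMSO (log2 fold change 0.62 ± 0.07 SE, limma adjusted p = 4.29e-06). IL6R remained the more abundant chain in every library.

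CSF2RB, the common beta chain of the receptors for GM-CSF, interleukin 3 and interleukin 5, had 10.4, 10.3 and 9.61 FPKM with AI-10-49, against 23.3, 23.4 and 24.8 FPKM with DMSO. Its log2 fold change of -1.16 ± 0.06 (SE, limma adjusted p = 4.46e-09) was the largest fall among the receptors. IL15RA, which presents interleukin 15 to neighbouring cells, fell by 0.92 on the log2 scale (limma adjusted p = 6.41e-07), with means of 8.56 ± 0.93 FPKM with AI-10-49 and 17.0 ± 1.67 FPKM with DMSO (SD, n = 3 each). IL27RA, a receptor chain for interleukin 27, had 33.8, 30.5 and 33.5 FPKM with AI-10-49 and 41.2, 40.7 and 42.6 FPKM with DMSO, a small fall (log2 fold change -0.34 ± 0.08 SE, limma adjusted p = 0.00119, and -0.30 without AI-10-49 replicate 2). IL10RA, the binding chain for the anti-inflammatory interleukin 10, rose by 0.79 (limma adjusted p = 1.32e-07, and 0.80 without AI-10-49 replicate 2) and averaged 29.7 ± 0.74 FPKM with AI-10-49 and 16.8 ± 0.39 FPKM with DMSO.

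**Figure D4:**
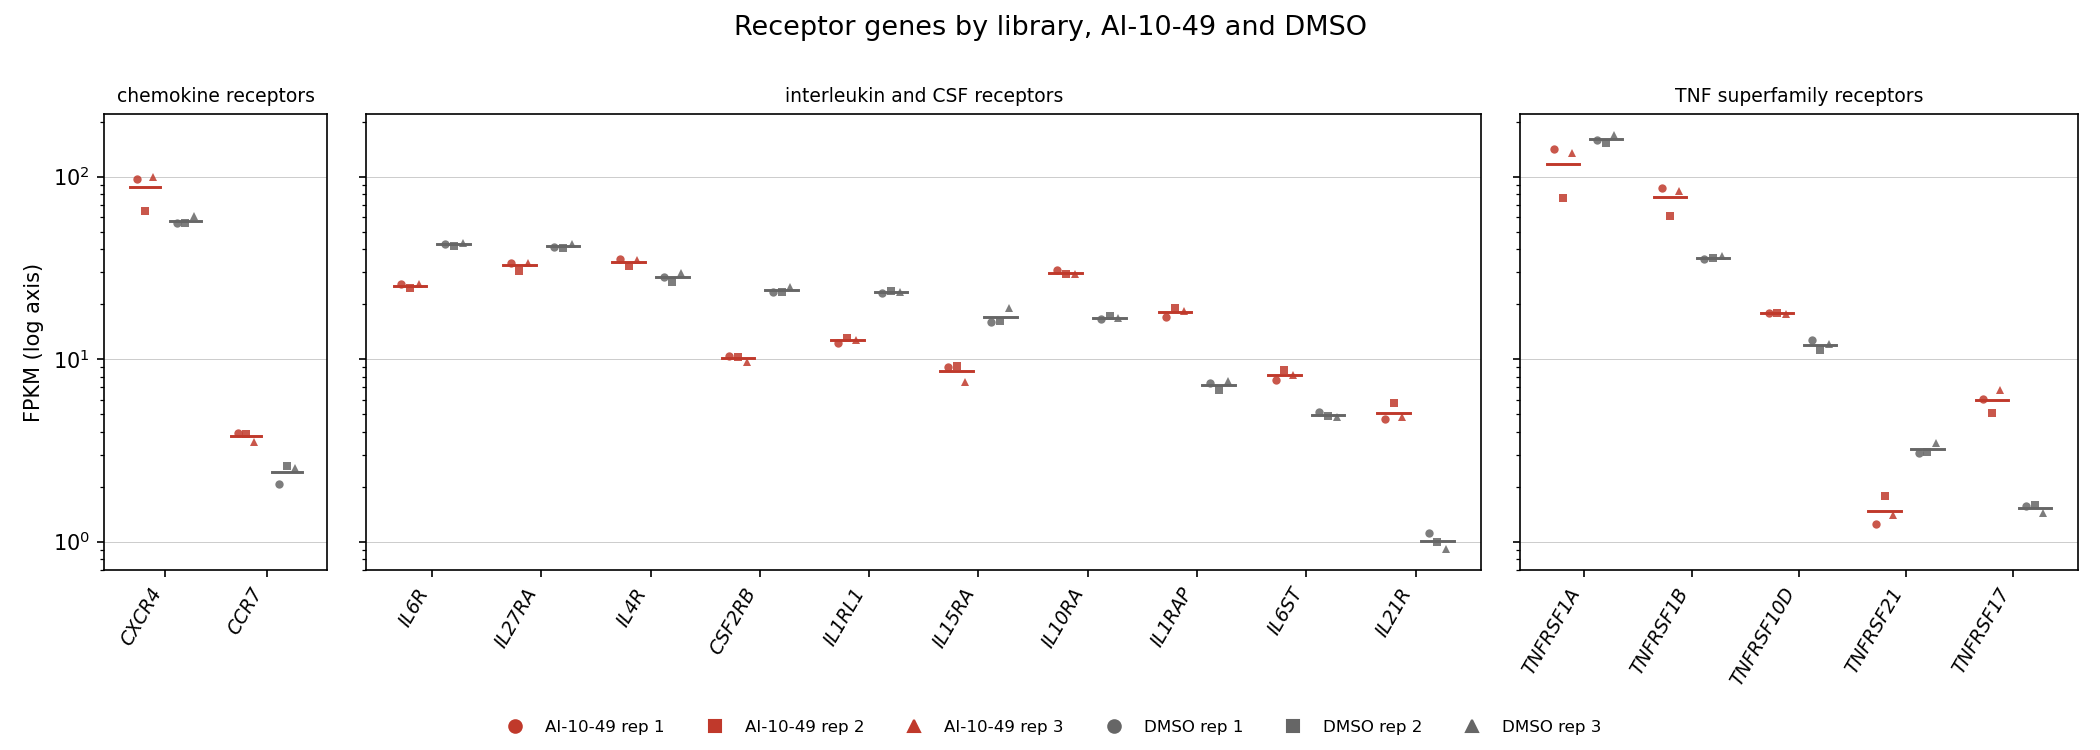
FPKM on a log axis of the 17 receptor genes in each AI-10-49 library (red, left of each pair) and each DMSO library (grey), with replicates 1, 2 and 3 as circles, squares and triangles and group means as horizontal lines. IL21R stands at a mean of 5.08 FPKM with AI-10-49 and 1.01 FPKM with DMSO, CSF2RB at 10.1 FPKM with AI-10-49 and 23.8 FPKM with DMSO, and the AI-10-49 replicate 2 square of TNFRSF1A lies far below the others.

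Among the 5 TNF superfamily receptor genes, 3 rose, 1 fell and 1 did not pass, where 46.2% of all rows tested were higher and 49.1% lower. TNFRSF1B and TNFRSF1A encode the receptors for TNF, and only the product of TNFRSF1A carries a death domain. TNFRSF1B had 86.2, 60.8 and 83.5 FPKM with AI-10-49, against 35.3, 35.8 and 36.7 FPKM with DMSO (log2 fold change 1.06 ± 0.13 SE, limma adjusted p = 6.86e-06, and 1.22 without AI-10-49 replicate 2). TNFRSF1A had 141, 76.3 and 135 FPKM with AI-10-49, against 159, 153 and 169 FPKM with DMSO. Although each AI-10-49 library of TNFRSF1A was below each DMSO library, it did not pass (log2 fold change -0.50 ± 0.31 SE, limma adjusted p = 0.134). Without AI-10-49 replicate 2 it passed with a smaller change (-0.21 ± 0.07 SE, adjusted p = 0.012), and under quantile normalization its sign turned (0.084, adjusted p = 0.2), so no direction is given for TNFRSF1A. TNFRSF17 encodes BCMA, a receptor for BAFF that is typical of plasma cells. It had 6.07, 5.06 and 6.74 FPKM with AI-10-49, against 1.56, 1.58 and 1.44 FPKM with DMSO (log2 fold change 1.45 ± 0.10 SE, limma adjusted p = 3.27e-08). TNFRSF10D, a decoy receptor for the death ligand TRAIL, rose by 0.53 (limma adjusted p = 5.99e-06) and averaged 17.8 ± 0.05 FPKM with AI-10-49 and 12.0 ± 0.76 FPKM with DMSO (SD, n = 3 each). TNFRSF21, a death domain receptor, fell by 0.77 on the log2 scale (limma adjusted p = 1.33e-05), at 1.47 ± 0.27 FPKM with AI-10-49 and 3.21 ± 0.22 FPKM with DMSO.

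Some ligand genes and receptor genes whose products bind each other or join in 1 receptor complex both had a row. Their log2 fold changes went the same way in some cases and opposite ways in others. Both were higher with AI-10-49 for OSM (1.13) and IL11 (1.14) with the signalling chain gene IL6ST (0.62), and both were lower for LTB (-1.40) with LTBR (-0.80), the gene of the lymphotoxin beta receptor. The ligand was lower and the receptor higher for IL1B (-1.73) with IL1RAP (1.22), TNFSF13B (-0.59) with TNFRSF17 (1.45) and LIF (-0.93) with IL6ST (0.62). The reverse held for TNFSF14 (0.66), whose product also binds the lymphotoxin beta receptor, with LTBR (-0.80). LIF was tested through its DMSO level alone and TNFSF14 through its AI-10-49 level alone, so the filter favoured their directions. These are examples and not a full count of such pairs.

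Genes that carry the signals of these receptors were counted from 7 further lists. The lists were chosen with earlier results of these data known, so their counts describe the genes and are not tests. Of 16 tested genes of TNF receptor and canonical NF-kB signalling (of 30 listed), 14 were higher and 2 lower, against 46.2% higher and 49.1% lower over all rows. The list holds adaptors, kinases, ubiquitin ligases and inhibitors, and also the NF-kB subunit genes REL and NFKB1. BIRC3, a ubiquitin ligase at TNF receptors, stood at 25.8 ± 1.54 FPKM with AI-10-49 and 2.74 ± 0.24 FPKM with DMSO (SD, n = 3 each; log2 fold change 2.84, limma adjusted p = 1.51e-11). The pathway's own inhibitors TNFAIP3 (2.26) and NFKBIA (1.26, or 1.64 without AI-10-49 replicate 2) rose with it, and the adaptors TRAF3 (-0.27) and TRAF4 (-0.46) fell. In the non-canonical branch 5 of 7 rose and 2 fell, against 46.2% higher and 49.1% lower over all rows. RELB (2.93), BIRC3 (2.84) and NFKB2 (2.74) rose most, and the risers BIRC2 and BIRC3 are also in the count above. LTBR, the receptor for the LTB product, fell (-0.80, limma adjusted p = 2.46e-06). BIRC2, BIRC3, CD40, LTBR, TRAF3 and TRAF6 stand on more than 1 of these lists.

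Of 10 tested genes of interleukin 1 and Toll receptor signalling, 5 rose and 5 fell, with IRAK2 (1.08) and IRAK4 (0.70), kinases of that pathway, higher and the adaptor MYD88 (-0.53) and the kinase IRAK1 (-0.42) lower. JAK2 rose (0.42) and TYK2 fell (-0.35), the only 2 of 11 listed JAK and STAT genes with a tested row. Of 8 inhibitors of cytokine signalling, 5 rose and 3 fell. Among these, ZFP36, whose product destroys cytokine mRNAs, stood at 22.0 ± 0.19 FPKM with AI-10-49 and 10.8 ± 0.39 FPKM with DMSO (log2 fold change 0.96), and its relative ZFP36L2 at 28.3 ± 2.97 FPKM with AI-10-49 and 120 ± 4.22 FPKM with DMSO (log2 fold change -2.06). CISH, a STAT5 target that restrains cytokine receptors, fell by 0.84 on the log2 scale. Of 13 chemokine receptor signalling genes, 6 rose, 6 fell and 1 did not pass, with the G protein regulators RGS1 (3.17), RGS2 (1.87) and RGS16 (1.16) higher and the receptor kinase GRK6 (-1.13) and the phospholipase PLCB2 (-1.02) lower. Of 12 cytokine and growth factor genes outside the symbol rule, 6 rose, 5 fell and 1 did not pass. VEGFA (0.73) and IFNGR1 (0.54) were higher and the stem cell factor receptor gene KIT (-1.04) lower. The counts in this paragraph stand beside 46.2% higher and 49.1% lower over all rows tested, and are no result about these lists.

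Markers of the cell type were checked in the same rows. Of 12 myeloid leukaemia markers 7 had a row, and their summed level was 181 to 269 FPKM in the AI-10-49 libraries and 399 to 444 FPKM in the DMSO libraries. The largest parts of this sum came from SPI1, CEBPA and KIT. AI-10-49 replicate 2 read low in abundant rows, and the sum without that library was not taken. Of 8 monocyte and macrophage markers 2 had a row (LYZ and MS4A7), summing to 14.5 to 16.2 FPKM with AI-10-49 and 16.0 to 16.7 FPKM with DMSO. These went opposite ways, LYZ with means of 11.2 FPKM with AI-10-49 and 15.6 FPKM with DMSO and MS4A7 with 4.11 FPKM with AI-10-49 and 0.871 FPKM with DMSO. All libraries were made from the ME-1 line, so genes known as markers of other cells do not count such cells here. These genes gave 16.9 to 17.2 FPKM with AI-10-49 and 32.6 to 34.3 FPKM with DMSO for T and NK cells (2 of 8), and 8.72 to 10.6 FPKM with AI-10-49 and 24.8 to 30.0 FPKM with DMSO for B cells (2 of 5). They gave 8.16 to 8.78 FPKM with AI-10-49 and 22.1 to 24.0 FPKM with DMSO for fibroblasts and endothelium (3 of 7), and 6.50 to 7.75 FPKM with AI-10-49 and 14.9 to 15.9 FPKM with DMSO for erythroid cells and megakaryocytes (2 of 7). None of the markers with a row was at 0, and markers such as MPO, CD34 and CD14 were not analysed here. The part of these shifts in the cytokine results was not tested. In bulk RNA fewer ME-1 cells that express a gene cannot be told apart from less of its RNA per cell.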

How the data were processed

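Total RNA from ME-1 cells was made into libraries with a TruSeq kit and read as 90 bp pairs, per the labels. The authors deposited FPKM for 6339 rows and 6 libraries. Bowtie2 2.1.0, Cufflinks 2.2.0, Cuffdiff and build hg19 are named in the submitters' processing notes. The sources used here do not say how the rows were selected. Library depth is unknown, so no interval that needs it is given.

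FPKM are not counts. They were analysed as log2(FPKM + 1) with limma 3.58.1 in R 4.3.3 (AI-10-49 minus DMSO, two-sided moderated test whose prior follows the mean-variance trend). Rows whose mean reached 1 FPKM in either group, 6230 in all, were tested, with Benjamini-Hochberg adjustment over all of them. The threshold was 0.05. The fit was tested on simulated data with few changed rows and the spread of the DMSO libraries in both groups. That check could not bear on AI-10-49 replicate 2 or on a table where most rows differ. Members and lists were chosen with earlier results of these data known. Values in every library were given for members with a called log2 fold change of at least 1 and groups apart, for the most abundant member of each role and for listed ligand and receptor pairs with both rows. Further members were given in full where space allowed. Promoters came from RefSeq (GRCh38.p14), with symbols matched to current names, and plots from Matplotlib 3.10.9. Alternatives were other pseudocounts, filters, scalings, a replicate block, no trend, stricter thresholds and leaving out each library.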

Additional observations from a re-analysis of the deposited data

How the results depend on the processing

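Quantile normalization without AI-10-49 replicate 2 was chosen after seeing the data; all other settings were planned. Of 531 values of single members under alternatives, 524 kept their direction and their side of the threshold, and the rest belong to IL18 and TNFRSF1A. IL18 passed in 4 settings, with log2 fold changes of 0.84 (quantile normalization), 0.46 (replicate block), 0.75 (without AI-10-49 replicate 2) and 0.94 (both quantile normalization and that library left out). TNFRSF1A passed at -0.21 without AI-10-49 replicate 2 and reversed to 0.084 under quantile normalization and to 0.046 with that library also left out. Quantile normalization moved the median of all rows to -0.06, against -0.28. Counts of members stayed at 20 to 21 higher and 14 to 15 lower when single libraries were left out, and the median of the members at 0.48 to 0.53. A filter at 5 FPKM, with 27 members tested, left 9 lower members and 4 lower ligands. A minimum log2 fold change of 1, which removes small changes by construction, left 11 higher and 7 lower members, with 4 higher and 1 lower among receptors. The replicate number as a block gave 21 higher and 14 lower members. Deviations of same-numbered libraries correlated across rows at r = -0.15, 0.147 and 0.247, so the numbers were not treated as pairs, and not every library correlated best with its own number. Since the depth of the libraries is unknown, only their spread shows how precise low values are.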
